A study of Drosophila melanogaster with 4 samples.

Results

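Serpins are serine protease inhibitors that act once: a target protease cuts an exposed loop of the serpin, and the serpin then changes shape and traps the enzyme. In Drosophila, secreted serpins hold in check the protease cascades of the hemolymph that activate the Toll receptor and the phenoloxidases of melanin formation. The genes described here are 8 serpins of hemolymph and epidermis, namely Spn88Eb, Spn88Ea, Spn27A, Spn43Aa, Spn43Ab, Spn43Ad, Spn55B and nec. They were taken by name from the 16727 genes of the count table, which holds 28 serpin genes in all.

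The libraries came from whole embryos of Drosophila melanogaster, 16 to 18 h old, of the genotypes deltaHisC; 12xH3.2-WT (H3.2-WT) and deltaHisC; 12xH3.2-K4R (H3.2-K4R), with 2 libraries of total RNA in each group. All embryos lacked both copies of the replication-dependent histone gene complex, for which GFP was the selection marker, and carried 12 copies of a histone transgene that encodes either wild-type H3.2 or H3.2 with arginine in place of lysine 4. The genes of the variant H3.3 lie outside the deleted complex and were present in both groups. The title of the series names the purpose, which is how lysine 4 counters the Polycomb group and promotes the expression of its targets. The libraries held between 33882742 (H3.2-WT replicate 1) and 45509930 (H3.2-WT replicate 2) counted pairs. H3.2-K4R replicate 2 stood apart: across genes its log2 CPM (counts scaled to a common library size) correlated at 0.931 and 0.939 with the H3.2-WT libraries and at 0.952 with H3.2-K4R replicate 1, against 0.958 to 0.967 between the other libraries. Each result that rests on it is given with the values of both H3.2-K4R libraries. All differences below are between whole embryos, in which more cells of a type and more RNA per cell cannot be told apart.

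The set was chosen by gene name with the levels and fold changes of this comparison known, so the fold changes of the 8 genes are given as a description and not as a test. All 8 passed the filter on low counts, among 11562 genes tested. One of them, Spn88Eb, was past the threshold (p under 0.05 in edgeR's quasi-likelihood test after Benjamini-Hochberg adjustment over all genes), where 0.588% of all tested genes were called, 0.415% higher and 0.173% lower. Of the 8, 5 had positive and 3 negative log2 fold changes (all given as K4R relative to WT), with a median of 0.05 beside -0.02 over all tested genes. The libraries of the groups did not overlap in 4 of the 8 (Spn88Eb, Spn27A, Spn43Ab and Spn55B), as in 51.0% of all tested genes.

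The count of 1 of 8, Spn88Eb, also came from DESeq2 (6.65% of all genes called), limma-voom (1.50%), edgeR without a filter (7.06%), with DESeq2's size factors (0.640%) and with the trend over exon length removed (0.874%). It came likewise when H3.2-WT replicate 1 was left out (0.263%) or H3.2-K4R replicate 2 (0.685%). Without H3.2-WT replicate 2 the count was 0, where 0.00830% of all genes were called. It was 3 (Spn88Eb, Spn43Ab and Spn55B) with the replicate number as a block (11.8%) and without H3.2-K4R replicate 1 (7.01%).

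Spn88Eb (FBgn0038299; dm6 chromosome 3R, 15206703 to 15208762, minus strand) was counted 48 and 106 times in H3.2-WT and 679 and 568 times in H3.2-K4R. This is 1.41 and 2.28 CPM against 15.9 and 15.7 CPM. Both H3.2-K4R libraries lay far above both H3.2-WT libraries. The fitted log2 fold change was 3.09 ± 0.32 (SE, n = 2 per group; 95% interval 2.34 to 3.83), or 8.50-fold, the 92nd highest of the 11562 tested genes. The H3.2-K4R libraries differed from each other by no more than counting error (replicate 2 over replicate 1, 0.986; 95% exact counting interval 0.881 to 1.10), whereas the H3.2-WT libraries differed by more (1.62; 1.14 to 2.33).

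Spn88Ea (FBgn0028984; 3R, 15203069 to 15206447, minus strand), an inhibitor known to restrain Toll signalling, is the direct neighbour of Spn88Eb on the same strand, 255 bases away. It lay at 80.9 and 88.2 CPM in H3.2-WT and at 93.6 and 84.2 CPM in H3.2-K4R. These ranges overlapped, and the log2 fold change was 0.07 ± 0.15 (SE; 95% interval -0.28 to 0.42). Within each library Spn88Eb reached 1.85% and 2.75% of the level of Spn88Ea per exon length in H3.2-WT, against 18.1% and 19.8% in H3.2-K4R. The mean log2 ratio differed by 3.07 between the groups, close to the fold change of Spn88Eb itself.

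**Figure D1:**
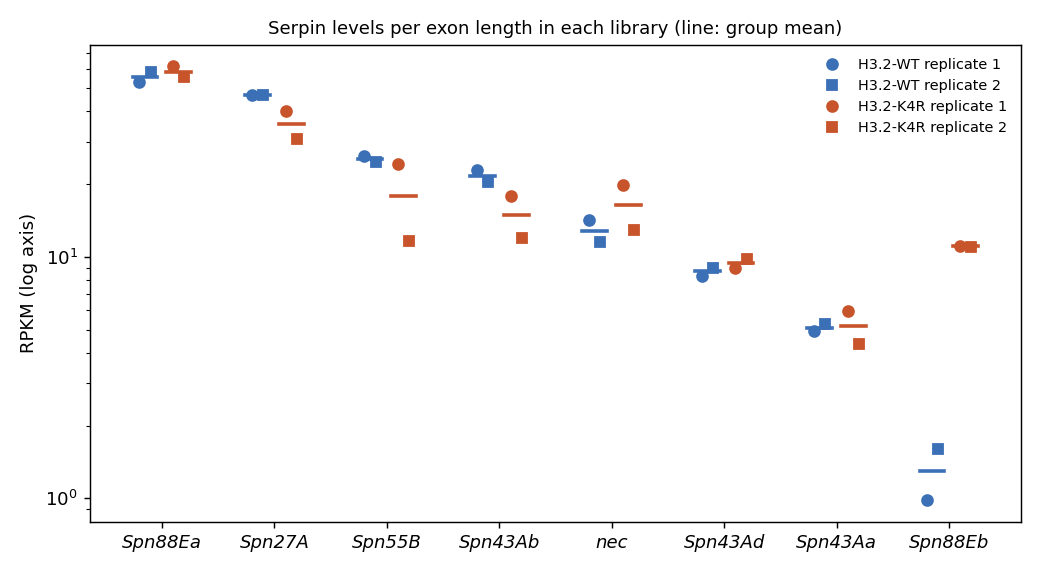
Level of each of the 8 serpin genes per exon length (RPKM, CPM per kb of exon, log axis) in each library, ordered by the H3.2-WT mean, with points for libraries and lines for group means. Spn88Eb is the lowest gene in H3.2-WT, at 0.984 and 1.6 RPKM, and lies at 11.1 and 11.0 RPKM in H3.2-K4R, while Spn88Ea is the highest in both groups.

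Spn27A (FBgn0028990; 2L, 6671065 to 6673347, minus strand) encodes the inhibitor that restricts phenoloxidase activation and, in the early embryo, the Toll-activating protease Easter. It lay at 107 and 107 CPM in H3.2-WT and at 91.8 and 70.3 CPM in H3.2-K4R. Both H3.2-K4R libraries were below both H3.2-WT libraries, and H3.2-K4R replicate 2 was the lowest (replicate 2 over replicate 1, 0.765; counting interval 0.728 to 0.805). The log2 fold change was -0.40 ± 0.17 (SE), not past the threshold.

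nec (FBgn0002930; 2R, 7156477 to 7158241, minus strand) encodes Necrotic, the hemolymph inhibitor that keeps the protease Persephone from activating Toll. Its level was 23.2 and 18.8 CPM in H3.2-WT and 32.3 and 21.0 CPM in H3.2-K4R. The groups overlapped, because H3.2-K4R replicate 2 lay below H3.2-WT replicate 1. The log2 fold change was 0.34 ± 0.24 (SE; 95% interval -0.21 to 0.90). In both groups replicate 1 was higher than replicate 2 by more than counting error, with ratios of replicate 2 to replicate 1 of 0.809 (0.734 to 0.892) in H3.2-WT and 0.651 (0.595 to 0.712) in H3.2-K4R.

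nec lies in a row with the other 43A serpins. Spn43Ab (FBgn0024293; 2R, 7151662 to 7153642) is followed after 95 bases by Spn43Ad (FBgn0044011; 7153738 to 7155424) and after a further 1052 bases by nec, all on the minus strand, within the span of the planar polarity gene pk on the plus strand and without overlap of its exons. Spn43Aa (FBgn0024294; 7147692 to 7149289) lies on the plus strand at the other end. Spn43Ab had 30.3 and 27.1 CPM in H3.2-WT and 23.6 and 16.0 CPM in H3.2-K4R, without overlap, and a log2 fold change of -0.54 ± 0.22 (SE) that was not past the threshold. Spn43Ad varied little between libraries, at 12.0 and 12.9 CPM against 12.9 and 14.1 CPM, with a log2 fold change of 0.11 ± 0.21. Spn43Aa was the lowest of the row, at 6.40 and 6.79 CPM against 7.74 and 5.64 CPM, with 0.02 ± 0.30.

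The ratio of nec to Spn43Ab per exon length separated the groups, at 62.3% and 56.4% in H3.2-WT against 111% and 107% in H3.2-K4R. The ratio of nec to Spn43Ad did not, at 170% and 127% against 220% and 131%. The ratio of Spn43Ab to Spn43Ad, the closest pair, was 273% and 226% in H3.2-WT against 197% and 122% in H3.2-K4R, also without overlap. The ratio of Spn43Aa to Spn43Ad overlapped, at 59.1% and 58.1% against 66.5% and 44.4%. Each of the ratios that separated the groups includes Spn43Ab, which did not overlap by itself, as 51.0% of all tested genes did not. The share of gene pairs whose ratios separate the groups was not computed. These ratios are descriptions of 4 libraries, and an exact two-sided permutation test of 2 against 2 libraries cannot give a p below 0.333.

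Spn55B (FBgn0028983; 2R, 18126347 to 18128210, plus strand) had 34 and 32.2 CPM in H3.2-WT and 31.4 and 15 CPM in H3.2-K4R. H3.2-K4R replicate 1 was close to the H3.2-WT libraries and replicate 2 far lower, at 0.479 of replicate 1 (counting interval 0.433 to 0.530). The log2 fold change was -0.51 ± 0.31 (SE; 95% interval -1.23 to 0.21). It was -0.08 when H3.2-K4R replicate 2 was left out. When replicate 1 of that group was left out it was -1.14 and past the edgeR threshold, as was that of Spn43Ab (-0.85). Spn27A had -0.22 and -0.61 in these fits, and nec 0.62 and 0.00.

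**Figure D2:**
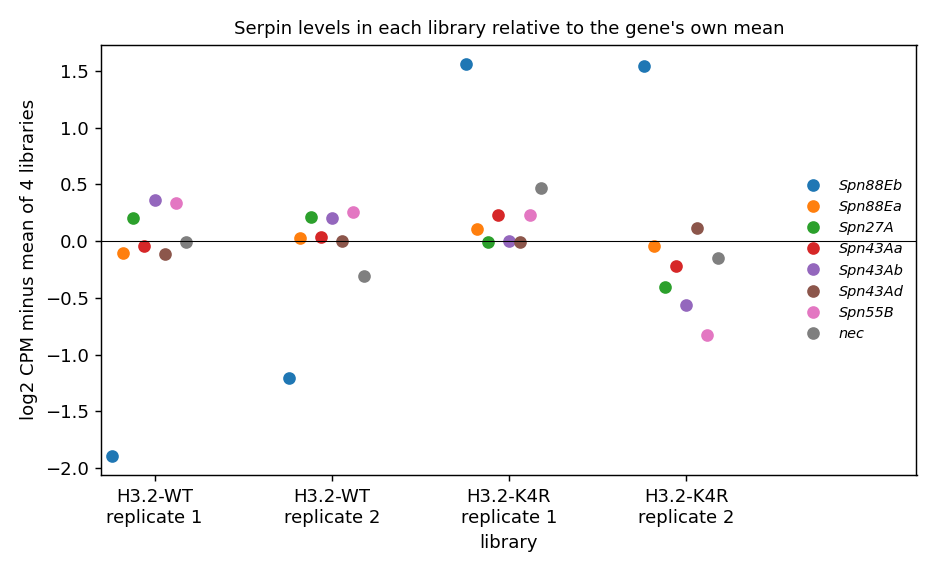
Level of the 8 serpin genes in each library as log2 CPM minus the gene's own mean over the 4 libraries, 1 point per gene and library. Spn88Eb lies at -1.89 and -1.21 in H3.2-WT against 1.56 and 1.54 in H3.2-K4R, and Spn55B at 0.23 in H3.2-K4R replicate 1 and at -0.83 in replicate 2.

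H3.2-K4R replicate 2 was the lowest library for 4 of the 8 genes (Spn27A, Spn43Aa, Spn43Ab and Spn55B), as it was for 34.6% of all tested genes. It was the highest library for Spn43Ad alone. The part of this library in the lower values of Spn27A, Spn43Ab and Spn55B was not tested. Across 5528 genes at a mean log2 CPM of 4 or more, exon length and log2 fold change had a Spearman rho of 0.395 (a description, since genes share the libraries). Between replicates of 1 group (replicate 2 over replicate 1) it was 0.410 for H3.2-WT, against 0.203 for H3.2-K4R, so libraries of the same genotype also differed along exon length. The 8 serpins had exon lengths of 1294 to 2283 bases, shorter in the median (1432 bases) than all tested genes (1902 bases). With the exon-length trend removed the log2 fold change was 3.26 for Spn88Eb, 0.50 for nec, -0.34 for Spn43Ab, -0.32 for Spn55B and -0.32 for Spn27A. It was 0.24 for Spn88Ea (0.07 with the trend), 0.30 for Spn43Ad (0.11) and 0.22 for Spn43Aa (0.02), none past the threshold.

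Compared per exon length, the order of levels in H3.2-WT was Spn88Ea (55.6 ± 3.40 RPKM; SD, n = 2), Spn27A (46.8 ± 0.112), Spn55B (25.5 ± 1.02), Spn43Ab (21.6 ± 1.72), nec (12.9 ± 1.92), Spn43Ad (8.70 ± 0.475), Spn43Aa (5.10 ± 0.215) and Spn88Eb (1.29 ± 0.433). No neighbours in this order overlapped between libraries. In H3.2-K4R the order began the same way with Spn88Ea at 58.4 ± 4.37 and Spn27A at 35.5 ± 6.67 RPKM. Spn55B (17.9 ± 8.91), nec (16.3 ± 4.87) and Spn43Ab (14.9 ± 4.05) followed with overlapping libraries. Spn88Eb, at 11.1 ± 0.106 RPKM, was sixth there and above Spn43Ad (9.41 ± 0.594) and Spn43Aa (5.17 ± 1.15). Spn27A and Spn88Ea together made up 60.0% to 66.1% of the CPM of the 8 genes in each library, and the sum over the 8 was 295 and 295 CPM in H3.2-WT and 309 and 242 CPM in H3.2-K4R.

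The 8 genes were similar in protein length. Each is annotated as protein-coding with 1 or 2 transcripts in Ensembl, and the predicted proteins have 374 (Spn55B) to 476 (nec) residues. Over the transcripts of a gene 2 to 4 distinct exons are annotated, where exons with a different start or end count separately. The summed exon length of Spn27A (2283 bases) equals its span, so no intron separates its 2 distinct exons. The predicted products of Spn88Eb and Spn88Ea are nearly equal in length, at 426 and 427 residues.

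Around the 88E pair, 19 other genes within 50000 bases on either side were tested. None was past the edgeR threshold (2 had p under 0.05 before adjustment), and the log2 fold changes ran from -1.10 to 0.40. Of the 19, 3 were positive, where 48.1% of all tested genes were. In windows of the same size, 7 of 8 other genes were positive at 43A, 6 of 17 at 27A and 12 of 21 at 55B. CG4203, the gene on the other flank of Spn88Eb at 441 bases, had 8.72 and 8.49 CPM in H3.2-WT and 6.99 and 8.0 CPM in H3.2-K4R (-0.20 ± 0.26, adjusted p = 0.754, edgeR). On the other side of the pair CG6752 had -0.20 ± 0.25. CG42542, whose plus-strand exons overlap the end of Spn88Ea, had -0.38 ± 0.17. Reads were counted by strand, so that antisense partners were counted apart. Around the 43A row 8 other genes were tested and 0 passed in edgeR (0 had p under 0.05 before adjustment), pk had 0.14 ± 0.16, and CG11060, the next gene beyond nec, had 0.38 ± 0.39. On the flanks of Spn43Aa, CR44443 had at most 0.305 CPM in any library and CR44200 had 0 CPM in every library. CG12828, whose exons overlap those of Spn43Aa on the opposite strand, also had 0 CPM in every library. The genes next to Spn55B, stau of RNA localisation and Dip3, had 0.39 ± 0.14 and -0.25 ± 0.22, neither past the threshold. Galt, the sugar metabolism gene next to Spn27A, had -0.46 ± 0.20, and the oocyte gene cort on its other side had at most 1.05 CPM in any library. Spn27A lies within the spans of CG34310 and cup on the opposite strand, without overlap of their exons. CG34310 had -0.23 ± 0.20, and cup had 0 CPM in every library. These genes have the same span, and reads that overlap several genes were left out of the counts. Whether this bears on the 0 of cup was not tested.

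**Figure D3:**
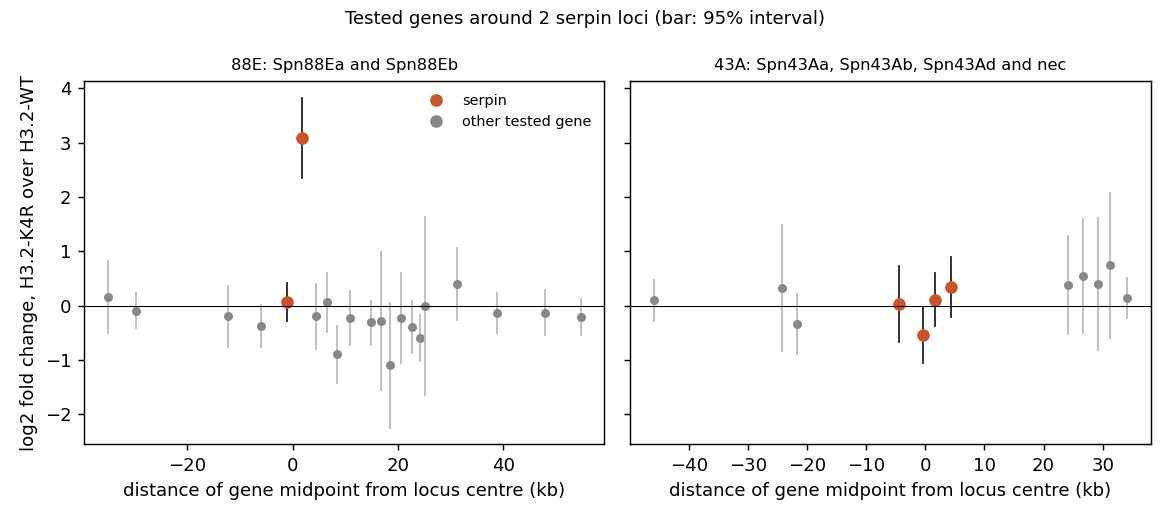
Log2 fold change (H3.2-K4R over H3.2-WT) for the tested genes within 50000 bases of the serpin loci 88E and 43A, plotted by the distance of the gene's midpoint from the locus centre in kb, with bars for 95% intervals. Spn88Eb stands at 3.09 in the left panel, and the other genes of that panel lie between -1.10 and 0.40.

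Of the 20 other serpin genes in the table, 11 were tested and 0 were past the edgeR threshold (before adjustment 1 was higher at p under 0.05, and DESeq2 called 1 higher), with a median log2 fold change of 0.17 and 8 positive values. Spn42Dc, in the serpin row at 42D, had the lowest p. It lay at 28.7 and 28.0 CPM in H3.2-WT and at 42.8 and 39.8 CPM in H3.2-K4R, without overlap (0.54 ± 0.16, adjusted p = 0.179, edgeR), and it was the gene that DESeq2 called. Its neighbour Spn42Da, whose splice forms include an inhibitor of furin, had 21.8 and 22.2 CPM against 29.7 and 23.7 CPM (0.28 ± 0.19). Spn42De had 0.17 ± 0.32, and Spn42Dd, which overlaps the end of Spn42Dc on the same strand and lay at 1.57 CPM or less in every library, had 1.15 ± 0.89.

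Spn77Ba, which limits melanisation in the tracheae, was the most abundant of these in CPM. It had 48.7 and 50.8 CPM in H3.2-WT and 48.0 and 59.7 CPM in H3.2-K4R (0.11 ± 0.17). Spn28Dc, an inhibitor known to restrict phenoloxidase activation after wounding, had 9.77 and 7.82 CPM against 9.74 and 8.94 CPM (0.09 ± 0.26). Spn100A had -0.32 ± 0.24, with H3.2-WT replicate 2 far above the other libraries at 43.5 CPM, and Spn31A had -0.29 ± 0.27. Spn47C and Spn85F had 0.57 ± 0.36 and 0.57 ± 0.54. Spn75F had -1.50 ± 1.69, with H3.2-K4R replicate 2 at 0. Another 5 serpin genes (Spn28B, Spn28Da, Spn28Db, Spn42Db and Spn53F) had a count of 0 in all 4 libraries, which allows up to 0.0647 to 0.0880 CPM at 3 counts per library.

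**Figure D4:**
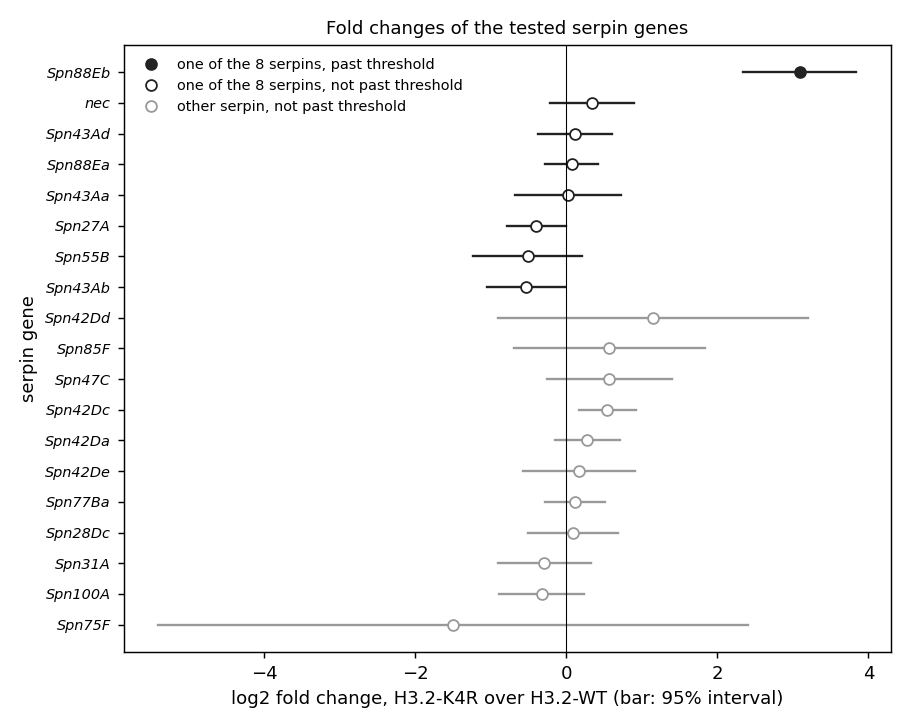
Log2 fold change (H3.2-K4R over H3.2-WT) and 95% interval for the 19 tested serpin genes, the 8 described here in black and the other 11 in grey, with a filled point for a gene past the edgeR threshold. Spn88Eb, at 3.09 with an interval of 2.34 to 3.83, is the one filled point.

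The targets of these inhibitors and the pathway around them were read from lists. Over all tested genes, 7.68% were higher and 9.20% lower at p under 0.05 before adjustment in edgeR, and DESeq2 called 3.58% higher. Of 18 genes of the extracellular Toll cascade (recognition proteins, proteases and the ligand), 14 were tested and 0 passed in edgeR (before adjustment 2 were higher and 1 lower at p under 0.05, and DESeq2 called 1 higher and 1 lower), with a median log2 fold change of 0.32. The ligand gene spz lay at 47.5 and 46.6 CPM in H3.2-WT and at 71.3 and 84.7 CPM in H3.2-K4R (0.73 ± 0.16, adjusted p = 0.111, edgeR). spheroide, a protease homolog of the cascade, had 31.6 and 36.7 CPM against 18.7 and 14.4 CPM (-1.05 ± 0.20, adjusted p = 0.0812, edgeR), and the recognition gene GNBP1 had 1.21 ± 0.47. Of the proteases that Necrotic and Spn27A restrain, psh (Persephone) had 0.16 ± 0.48 and ea (Easter) -0.55 ± 0.35.

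Of 9 genes for the Toll receptor and its signalling, 9 were tested and 0 passed in edgeR (before adjustment 1 was higher at p under 0.05, and DESeq2 called 1 higher), with a median of 0.10. The NF-kappaB gene dl had 123 and 121 CPM in H3.2-WT and 161 and 172 CPM in H3.2-K4R (0.45 ± 0.14, adjusted p = 0.186, edgeR). Dif, the other NF-kappaB factor of the pathway, had 0.24 ± 0.16 and Traf6 -0.39 ± 0.22.

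Of 18 secreted peptide genes known as Toll targets that were found in the table, 15 were tested. None passed the edgeR threshold, 8 of the 15 were higher at p under 0.05 before adjustment (7.68% of all tested genes), and DESeq2, which gave an adjusted p for 11 of them, called 3 higher (3.58% of all genes). Positive fold changes were found in 13 of the 15, and the median was 2.0. The libraries of the groups did not overlap in 10 of the 15, where 51.0% of all tested genes did not. Of the 18 genes, 4 were at 0 in at least 1 library. IM3 (now BomS3) had 29.9 and 5.71 CPM in H3.2-WT and 188 and 110 CPM in H3.2-K4R (3.07 ± 0.66, adjusted p = 0.103, edgeR). IM14 (now Dso2) had 1.66 ± 0.44 and IM4 (now Dso1) 2.40 ± 0.69. The libraries of IM4 differed widely within groups, at 6.16 and 1.88 CPM in H3.2-WT and 33.2 and 8.77 CPM in H3.2-K4R. The summed level of the 18 was 91.2 and 54.6 CPM in H3.2-WT and 324 and 182 CPM in H3.2-K4R. Most of each sum came from IM3 and from CR44404 (now IBIN), which had 34.2 and 37.9 CPM in H3.2-WT and 39.1 and 32.5 CPM in H3.2-K4R (-0.01 ± 0.18).

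Of 11 melanisation genes, 10 were tested and 0 passed in edgeR (before adjustment 2 were higher at p under 0.05, and DESeq2 called 1 higher), with a median of 0.07. The prophenoloxidase genes PPO1 and PPO2 had 0.04 ± 0.17 and 0.20 ± 0.18. The tyrosine hydroxylase gene ple had 98.4 and 78.3 CPM against 149 and 132 CPM (0.67 ± 0.17, adjusted p = 0.138, edgeR), and Sp7, a protease that activates phenoloxidase, had 0.84 ± 0.27 (adjusted p = 0.197). The dopa decarboxylase gene Ddc had -0.27 ± 0.15.

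**Figure D5:**
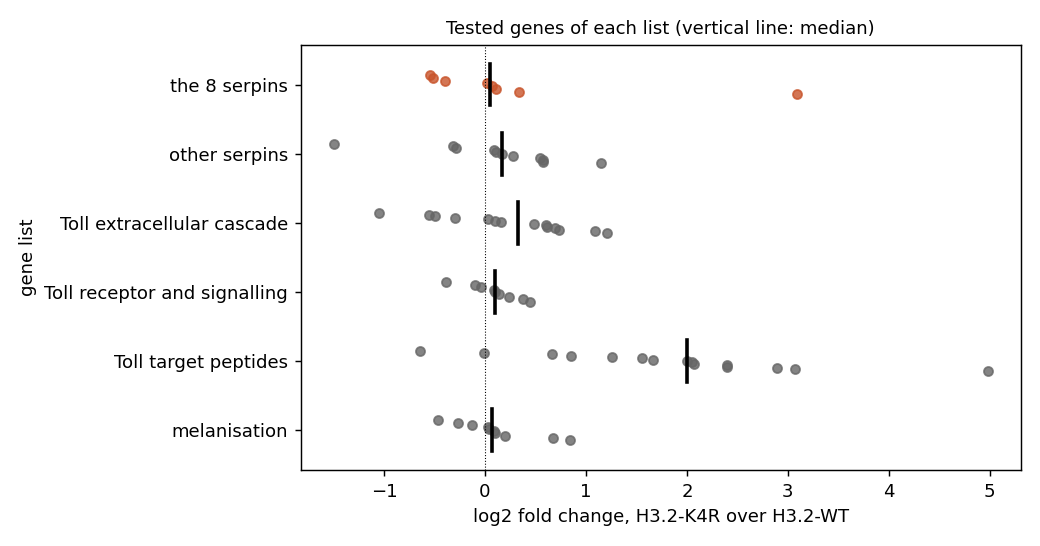
Log2 fold change (H3.2-K4R over H3.2-WT) for the tested genes of 6 sets, 1 point per gene, with a vertical line at the median of each set. The 8 serpins have a median of 0.05 with Spn88Eb apart at 3.09, and the Toll target peptides have a median of 2.0.

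Each tissue list held markers with counts in every library, but 5 of the 12 fat body markers were at 0 in at least 1 library. Of 9 tested fat body markers, 1 was past the edgeR threshold as higher (0.415% of all tested genes) and 0 as lower. This was the storage protein gene Lsp1gamma, at 1.35 and 1.53 CPM in H3.2-WT and 8.82 and 8.11 CPM in H3.2-K4R (2.55 ± 0.35, adjusted p = 0.0300, edgeR). The list had 5 positive and 4 negative log2 fold changes, with a median of 0.10 beside -0.02 over all tested genes. Lsp1gamma was no longer past the threshold when either H3.2-WT library was left out. The summed level of the list of 12 was 3300 and 3831 CPM in H3.2-WT and 4208 and 5284 CPM in H3.2-K4R. Lsp1alpha was at 0 in all libraries. The next lowest p values of this list belonged to the lipid transfer gene Mtp (-0.69 ± 0.22) and to Rfabg (now apolpp), the lipophorin gene that makes up most of the sum (0.42 ± 0.18), neither past the threshold. Of 12 hemocyte markers 0 passed in edgeR (before adjustment 1 was higher and 1 lower at p under 0.05, and DESeq2 called 0), with sums of 7144 and 8994 CPM against 7467 and 6258 CPM. Most of each sum came from Cg25C (now Col4a1), vkg and Ppn. The list had 7 positive and 5 negative log2 fold changes, with a median of 0.14. Hml, which had the lowest p, had 0.71 ± 0.23. The next by p, vkg and NimC4, had -0.44 ± 0.18 and -1.02 ± 0.51. None of these was past the threshold. Of 9 epidermal markers 0 passed in edgeR (0 had p under 0.05 before adjustment, and DESeq2 called 0), with sums of 3935 to 4235 CPM over the 4 libraries. Most of each sum came from verm and serp. The part of these tissues in the level of Spn88Eb was not tested. Crystal cell, tracheal, midgut, salivary gland, muscle and neuron markers also had 0 members past the edgeR threshold, among 4, 7, 8, 6, 8 and 8 tested. Between 0 (crystal cells) and 4 (muscle) of them had p under 0.05 before adjustment, and DESeq2 called 1 tracheal, 1 midgut and 1 neuronal gene.

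By the distance between profiles of log2 CPM over the 4 libraries, each centred on the gene's own mean, the genes nearest to Spn88Eb among 9287 outside the family were CG13135 (0.387), Cyp12a5 (0.612), Lsp1gamma (0.692), Cry (0.713) and CG13659 (0.721). CG13135 lay at 1.50 and 1.88 CPM in H3.2-WT and at 15.2 and 18.6 CPM in H3.2-K4R, and it was the only one within a distance of 0.5. Cyp12a5 is a cytochrome P450 gene, at 0.470 and 0.798 CPM against 7.06 and 3.85 CPM. Cry is printed with a capital letter as in the count table, and it was not matched to a current symbol. For nec, 1020 genes lay within 0.5, and the nearest were CG13203 (0.0418), Lpin (0.0433), CG17002 (0.0477), CCHa2 (0.0784) and Sodh-1 (0.0798). Lpin encodes lipin, an enzyme of triglyceride synthesis in fat body, and had 114 and 92.4 CPM against 164 and 103 CPM. The profiles were centred but not scaled, so the number of genes within 0.5 depends on the size of a gene's deviations. By this measure the genes nearest to Spn88Eb are those with a similar difference between the groups (log2 fold changes of 2.41 to 3.32).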

How the data were processed

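The authors deposited raw counts per gene. Per the file headers, featureCounts 2.0.6 counted each pair once, by strand, over the exons of a dm6 annotation, and left out reads that map to several places or overlap several genes. Other deposited values are the exon length of each gene. STAR 2.7.7a and SAMtools 1.9 are listed in the submitters' processing notes. Per the labels' protocols, eggs laid over 2 h at 25 °C were aged for 16 h, and about 0.25 µg of total RNA per library was depleted of ribosomal RNA. The HWT columns were assigned to H3.2-WT because the series has no other wild-type samples. Nothing says that replicates were separate collections, so p-values measure the spread between these libraries.

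Genes were filtered with filterByExpr (minimum count 10, minimum total 15) and tested with edgeR 4.0.16 in R 4.3.3 (TMM, quasi-likelihood test without a block, Benjamini-Hochberg adjustment over all 11562 genes, threshold 0.05). CPM uses TMM library sizes, and RPKM is CPM per kb of exon length. Intervals on fold changes are at 95% and not adjusted for the number of genes. Counting intervals and the floor of 3 counts cover counting error only. DESeq2 1.42.0, limma-voom (limma 3.58.1), another scaling, no filter, a replicate block, removal of the exon-length trend and leaving out each library were alternatives. The 8 genes, the 14 lists (other serpins, 4 of Toll and melanisation, 9 of tissue markers) and the naming rule were chosen with earlier results of these data known, and the window of 50000 bases after values had been seen. Named genes were the 8 serpins, all other tested serpins, the nearest flanking genes, and the 5 nearest profiles to Spn88Eb and nec. Up to 3 members of each list with the lowest p were also named. By this rule only dys, Hml, vkg and NimC4 are printed from the marker lists other than fat body. psh, ea, PPO1, PPO2, CR44404, Lsp1alpha, the serpins at 0 and the genes named for their counts in 1 library were chosen after their values were seen. So were Cg25C, Ppn, verm, serp, CG34310, cup and CG12828. A name pattern for clip-domain proteases matched no protease gene and was dropped. Symbols were matched to the RefSeq table of Release 6 (16508 of 16727), and exons and protein lengths come from the Ensembl annotation BDGP6, whose spans equal those of the table for all 8 serpins.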

Additional observations from a re-analysis of the deposited data

How the results depend on the processing

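The log2 fold change of Spn88Eb was positive in all 10 alternatives (2.80 to 3.49) and past the threshold in 9. Without H3.2-WT replicate 2 it was 3.49 and not past it, in a fit that called 1 gene in all. Over the fits that left out 1 library, the genes called ranged from 1 to 838 (68 with all libraries) and the serpins called among the 8 from 0 to 3. The genes called were 665 by DESeq2, 173 by limma-voom, 979 without a filter and 1366 with the replicate block. Without H3.2-K4R replicate 1, and with the replicate block, 3 of the 8 were called (Spn88Eb, and Spn43Ab and Spn55B as lower), where 7.01% and 11.8% of all genes were. Nothing in the labels says that the replicate numbers pair libraries, and the replicate 1 deviations of the groups correlated at 0.106 across genes. Signs changed for Spn43Aa, which ran from -0.23 to 0.23, in 2 of the 10 alternatives, and for Spn88Ea (-0.01) and nec (0.00) without H3.2-K4R replicate 1. By CPM in place of RPKM, Spn27A (2283 bases of exon) comes before Spn88Ea (1521 bases) in H3.2-WT. Likewise nec (1633 bases) comes before Spn55B (1297 bases) in H3.2-K4R. These changes of order come from the division by exon length. The cause of the shifts between fits was not tested.

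The fits called different shares of all genes: 6.65% by DESeq2, 1.50% by limma-voom, 7.06% without a filter and 11.8% with the block. Of the lists with 0 genes past the threshold, other serpins had 1 by DESeq2 and 1 with the replicate block (Spn42Dc). The extracellular Toll cascade had 2 by DESeq2, without a filter and with the replicate block (spz and spheroide) and 1 by limma-voom, and 0 to 2 with 1 library left out. Toll signalling had 1 by DESeq2 and 1 with the block. Toll target peptides had 3 by DESeq2, 1 by limma-voom, 8 without a filter and 8 with the block, among 11, 15, 17 and 15 tested, and 0 to 1 with 1 library left out. Melanisation had 1 by DESeq2, 1 without a filter and 2 with the block. Among the marker lists, the block called 2 hemocyte, 1 tracheal, 2 midgut, 2 salivary gland, 3 muscle and 1 neuronal gene. The tracheal gene (dys) was also called by DESeq2, by limma-voom, without a filter and without either H3.2-K4R library. Without a filter 1 hemocyte, 2 midgut, 1 salivary gland, 1 muscle and 1 neuronal gene were called, and 1 salivary gland gene without H3.2-K4R replicate 1. The SE of the log2 fold change of Spn88Eb was 0.37 without either H3.2-K4R library, and 0.38 and 0.41 without H3.2-WT replicates 1 and 2.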

Other observations

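Some serpin genes had counts in 1 group or 1 library and did not pass the filter. Spn28F had 14 counts in H3.2-K4R replicate 2 and 0 in the other libraries. Spn77Bc had 11 counts and Spn77Bb 2 counts in H3.2-K4R replicate 1, with 0 elsewhere. Spn38F was counted 5 and 2 times in H3.2-WT and not at all in H3.2-K4R. Spn75F, which was tested, was counted 46 and 19 times in H3.2-WT against 26 and 0 times in H3.2-K4R, and Spn85F had 50 counts in H3.2-WT replicate 1 against 165 to 210 in the other libraries.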
